A study of Mus musculus with 6 samples.

Results

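Ahcy, Glud1, Gldc and Pck2 encode liver enzymes that take amino acids and their carbon apart or return that carbon toward glucose. Their spots were read in the livers of 3 male mice, with 1 mouse in each group. The 4 genes were selected on their differences between these mice, the same values given below, from 7151 genes that had a spot with a single symbol on the 2 kinds of array, A and B. Every spot whose only symbol was 1 of the 4 was taken, which gave 7 spots: 1 for Ahcy, 2 for Glud1, 3 for Gldc and 1 for Pck2. A mouse of 17 days and a mouse of 174 days had been fed ad libitum, and a mouse of 177 days had been kept on caloric restriction. Total RNA of whole liver from each mouse was measured on both array kinds, so 6 arrays were compared. The mouse strain and the degree of the restriction were not given in the sources used here. No mouse had a replicate, so no difference below has an error between animals and none was tested. In whole liver, fewer cells of a type and less RNA per cell cannot be told apart.

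S-adenosylhomocysteine hydrolase, the product of Ahcy, clears the by-product of methyl transfer and so keeps the methionine cycle running. Glutamate dehydrogenase, encoded by Glud1, releases ammonia from glutamate in the mitochondrion and feeds the remaining carbon into the citric acid cycle. The glycine decarboxylase encoded by Gldc is the first component of the mitochondrial glycine cleavage system, whose other parts come from Amt, Gcsh and Dld. Pck2 encodes the mitochondrial phosphoenolpyruvate carboxykinase, which makes phosphoenolpyruvate from oxaloacetate inside the mitochondrion, as Pck1 does in the cytosol. The liver is the main organ of amino acid breakdown, and it draws on amino acid carbon for glucose when food is short. Transcription of Pck2 is known to respond to ATF4, the factor that acts when amino acids run low.

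Ahcy and Pck2 held the differences of at least 2-fold at the level of the gene, and their promoters are shown for that reason. They come from RefSeq on GRCm38.p6 and run from 250 bases before to 50 bases after the start of the gene, on the strand of the gene. Capitals mark matches, on either strand, to TGATGNAA, the core of the amino acid response element that ATF4 binds, to CCAAT and to GGGCGG, the GC box.
Pck2, chr14:55540016-55540315, plus strand: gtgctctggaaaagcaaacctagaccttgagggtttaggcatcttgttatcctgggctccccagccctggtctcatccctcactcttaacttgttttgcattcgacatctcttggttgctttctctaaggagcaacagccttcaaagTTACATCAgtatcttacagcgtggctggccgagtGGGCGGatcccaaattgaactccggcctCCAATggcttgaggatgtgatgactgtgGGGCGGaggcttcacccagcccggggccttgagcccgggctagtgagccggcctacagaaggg
Ahcy, chr2:155074448-155074747, minus strand: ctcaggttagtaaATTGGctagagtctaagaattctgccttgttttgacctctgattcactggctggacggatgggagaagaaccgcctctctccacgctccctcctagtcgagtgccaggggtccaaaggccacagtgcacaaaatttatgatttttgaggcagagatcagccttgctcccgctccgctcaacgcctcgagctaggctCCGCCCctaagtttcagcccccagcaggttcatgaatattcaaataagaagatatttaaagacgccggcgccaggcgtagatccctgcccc
The Pck2 window held a match to TGATGNAA on the opposite strand, read as TTACATCA on the strand shown, whose first base lay 103 bases before the start. Of 27025 RefSeq promoters of the same length, 4.06% held a match to TGATGNAA. The windows of Ahcy, Glud1 and Gldc held no match to these letters, and none of the 4 held TGACGTCA, the cyclic AMP response element, which 1.88% of promoters held. CCAAT was present in the windows of Ahcy, Gldc and Pck2 and in 37.9% of all promoters, and GGGCGG in all 4 windows and in 35.9% of promoters. In Pck2 CCAAT began 41 bases and the GC boxes 69 and 13 bases before the start, and no match overlapped another. A match is a run of letters, and binding was not measured here.

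The deposited values are spot intensities in arbitrary units, and the arrays differed in overall brightness. The median spot of array A read 364.3 at 17 days, 35.8 at 174 days and 375 under restriction. The arrays of the 174-day mouse were thus 10.2 to 10.5 times dimmer than the others on array A, and 5.47 to 6.62 times dimmer on array B. Intensities were therefore scaled between the arrays of a kind (quantile normalization of log2 values), and gene values used only spots whose mean normalized level exceeded the 50th percentile, here called entering spots. One bright mouse could carry a spot past that filter. Of the 7 spots 5 entered, at least 1 for each gene, and the 2 that did not were both named for Gldc. Of 6 hepatocyte genes with a spot, among them Alb and Apoa1, 5 entered, and the median of the 6 was brighter than 96.1% to 97.2% of spots in each mouse. The dimmest of the 6 was brighter than only 35.5% of spots at 17 days, 38.4% at 174 days and 54.4% under restriction. Summed over these 6 spots, normalized log2 values ran from 63.2 to 64.7 in the 3 mice. Opposite differences of single genes cancel in such a sum. By this scaling, the restricted mouse was at 0.89 log2 against the 17-day mouse for Alb and at -0.92 for Serpina1e. The 3 macrophage genes with a spot summed to 23.9 to 24.3, the 2 endothelial genes to 16.1 to 17.1, the 3 stellate genes, over 6 spots, to 52.2 to 53.0, the 3 bile duct genes to 20.9 to 21.7, and the 4 erythroid genes, over 18 spots, to 137.2 to 142.7. No marker had a reading of 0, and the part of other cells in the values below was not tested.

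Ahcy, of the methionine cycle, had its highest value in the ad libitum mouse of 174 days. Its spot, on array A, read 700.2 at 17 days, 189.9 at 174 days and 1059 under restriction. Set against the median of its own array, that was 1.92, 5.30 and 2.82 times the median spot. The spot was brighter than 70.3%, 86.7% and 77.9% of the spots of these arrays. Thus the lowest raw reading was the highest of the 3 relative to its array. After normalization Ahcy stood at 8.39, 9.60 and 8.91 log2. The 174-day mouse was 1.21 log2 (2.32-fold) above the 17-day mouse, a difference that 23 of 3865 genes, Ahcy included, reached or passed. The restricted mouse was at -0.69 log2 against the 174-day mouse and at 0.53 against the 17-day mouse. The age difference of Ahcy was 1.46 with median centring, 1.25 with loess and 1.25 after a correction for spot position. Position here means place in the order of the deposited values. The other alternatives either could not change the value of this spot or gave none. The age difference of Ahcy rests on 1 spot.

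Another spot of array A was annotated with Ahcy and with Gm4737, a predicted gene, and falls outside the rule for that reason. It read 1565 at 17 days, 208.1 at 174 days and 1395 under restriction. Its differences were 0.04 log2 for age and -0.38 for diet, and it was at -0.34 in the restricted mouse against the 17-day mouse. With median centring these were 0.44, -0.64 and -0.21, and after the position correction 0.03, 0.05 and 0.08. By quantile normalization, the age difference of the spot named for Ahcy alone was 1.17 log2 larger than that of the shared spot. These spots thus do not show the same age difference, and which of them follows the Ahcy transcript was not tested. For scale, genes with at least 2 entering spots had a median SD between their spots of 0.22 log2 in the age comparison, 0.36 in the diet comparison and 0.27 for the restricted against the 17-day mouse, over 557 genes. Their median range, the measure to set beside a gap between spots, was 0.33, 0.54 and 0.41 in the same order.

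Glud1, for ammonia release from glutamate, also had its highest value in the 174-day mouse on both arrays, by a margin that differed between them. The array A spot read 344.8 at 17 days, 71.2 at 174 days and 458.9 under restriction. The array B spot read 636.4, 112.3 and 414.9 in the same order. Normalized values were 7.32, 8.35 and 7.68 log2 on array A and 8.32, 8.46 and 8.004 on array B. The 174-day mouse was above the 17-day mouse by 1.03 on array A and by 0.14 on array B. Only the array A spot was thus 2-fold apart, and it was at 0.94 after the position correction. That gap of 0.89 between the spots was large for these arrays: 8.98% of the 557 genes had spots at least as far apart, and the median was 0.33. In the diet comparison the spots were at -0.67 and -0.46, a gap of 0.21 that 79.0% of those genes reached. Against the 17-day mouse, the restricted mouse was at 0.36 on array A and at -0.31 on array B. The median of both spots put Glud1 at 0.58 for age, -0.56 for diet and 0.02 for the restricted against the 17-day mouse. After the position correction the diet value was -0.26.

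**Figure D1:**
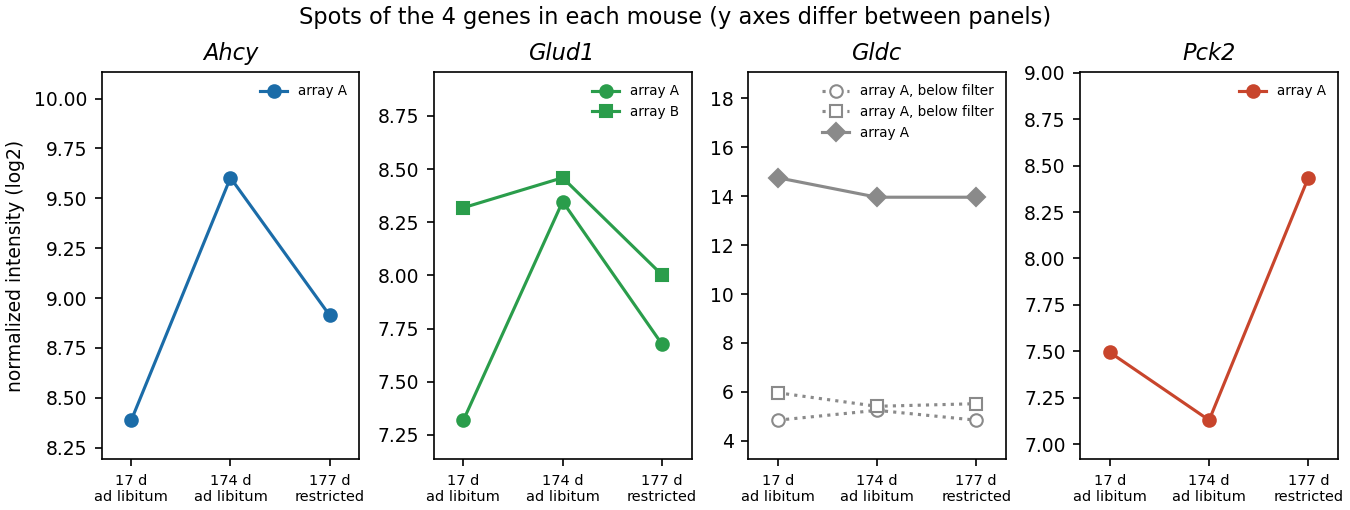
Normalized intensity (log2, y axis) of the 7 spots of Ahcy, Glud1, Gldc and Pck2 in each of 3 mice (x axis); a line joins the values of 1 spot, and open symbols mark spots below the brightness filter. Ahcy and both Glud1 spots were highest in the 174-day mouse, and Pck2 was highest in the restricted mouse at 8.43.

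Pck2, of mitochondrial gluconeogenesis, had its highest value in the calorie-restricted mouse. Its spot, on array A, read 385.8 at 17 days, 29.4 at 174 days and 757.5 under restriction. That was 1.06, 0.82 and 2.02 times the median spot of the array, and brighter than 51.9%, 43.6% and 71.1% of its spots. Normalized values were 7.49, 7.13 and 8.43 log2. Pck2 therefore stood near the middle of the brightness range in both ad libitum mice and clearly above it in the restricted mouse. The spot passed the brightness filter, at 7.40 on array A, with a mean of 7.69, but only through the restricted mouse, since the mean of the ad libitum mice was 7.31. The restricted mouse was 1.31 log2 (2.47-fold) above the 174-day mouse and 0.94 log2 (1.92-fold) above the 17-day mouse. The 174-day mouse was at -0.36 against the 17-day mouse. The diet difference was 1.30 with median centring, 1.27 with loess and 1.24 after the correction for spot position. The difference from the 17-day mouse ran from 0.68, after that correction, to 0.94. The alternatives of filter, floor and choice of spot or array could not change the value of this spot or gave none. Pck2 rests on 1 spot, and Pck1, the cytosolic counterpart, was looked for but had no spot with a single symbol.

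Gldc, of the glycine cleavage system, gave no single reading, because its 3 spots, all on array A, lay at opposite ends of the brightness range. The bright spot read 35323 at 17 days, where it was the brightest spot of the array. It read 5211 at 174 days and 26806 under restriction, ranking 4th from the brightest in both. The dim spots read 61.6, 7.97 and 63.3, and 135, 8.97 and 100.5, in the same order. Of all spots, 4.63% to 8.49% were dimmer than the first dim spot and 10.3% to 18.8% dimmer than the second. The first dim spot lay under the floor, set at the 5th percentile of each array, in the 17-day and the restricted mouse, so its differences are not measured on both sides. The second was at -0.55 for age, 0.11 for diet and -0.45 for the restricted against the 17-day mouse. Whether the 3 spots carry the same transcript was not tested.

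The bright spot alone set the gene value of Gldc, and its direction turned with the scaling. By quantile normalization it was at 14.75 log2 in the 17-day mouse and at 13.95 in both older mice, a difference of -0.80 for age, 0.00 for diet and -0.80 for the restricted against the 17-day mouse. With each array centred on its median the values were 0.59, -1.03 and -0.44, and with loess -0.12, 0.63 and 0.47. The correction for spot position gave -0.39, 0.07 and -0.32. At the top of an array, quantile normalization assigns values by rank alone, and here the rank went from 1 to 4. No direction can be given for Gldc in any of the 3 comparisons.

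**Figure D2:**
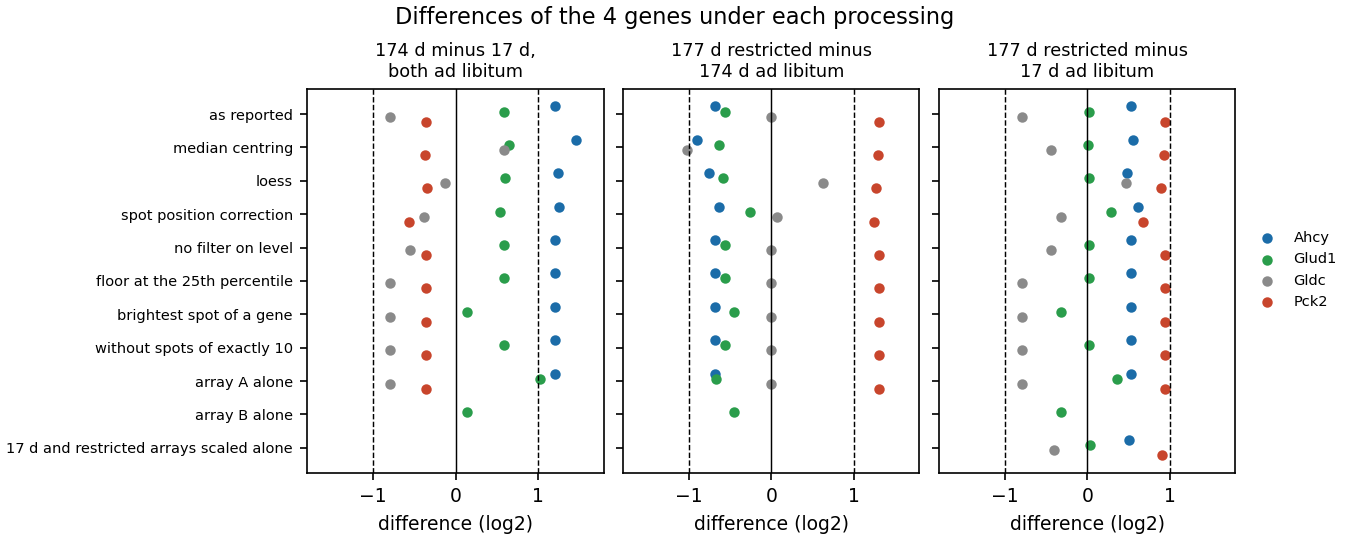
Differences (log2, x axis) of the 4 genes under the reported processing and each alternative (rows) in the 3 comparisons; dashed lines mark 2-fold, each point is 1 gene under 1 setting, and there are no error bars because each group had 1 mouse. Pck2 stays near 1.3 in the middle panel and Ahcy above 1.2 in the left panel, while Gldc lies on both sides of 0 in each panel.

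The 4 genes did not share a pattern over the 3 mice. In the age comparison 1 of the 4, Ahcy, was at least 2-fold higher, where 0.724% of 3865 genes were, and 0 were at least 2-fold lower, where 0.44% were. In the diet comparison 1 of 4, Pck2, was at least 2-fold higher (background 2.25%) and 0 at least 2-fold lower (4.61%). For the restricted against the 17-day mouse 0 were at least 2-fold higher (0.466%) or lower (1.11%). Because the genes were chosen with these differences known, nothing is read from these counts. The median of the 4 was 0.11 for age, -0.28 for diet and 0.27 for the restricted against the 17-day mouse, beside -0.03, -0.04 and -0.09 over all genes. The comparisons share arrays: the 174-day mouse enters both the age and the diet difference with opposite sign. The share of lower genes among those 2-fold apart was 37.8% for age and 67.2% for diet, but 18.7% and 92.5% with median centring. For the restricted against the 17-day mouse it was 70.5%, but 82.9% with loess, and after the correction for position 4 genes were higher and 36 lower. In the age comparison that correction gave 22.9%. Median centring put the median of all genes at 0.21 for age and -0.31 for diet. Relative to that shift, Ahcy was at 1.26 for age and -0.60 for diet, Glud1 at 0.44 and -0.33, and Pck2 at -0.57 and 1.61.

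**Figure D3:**
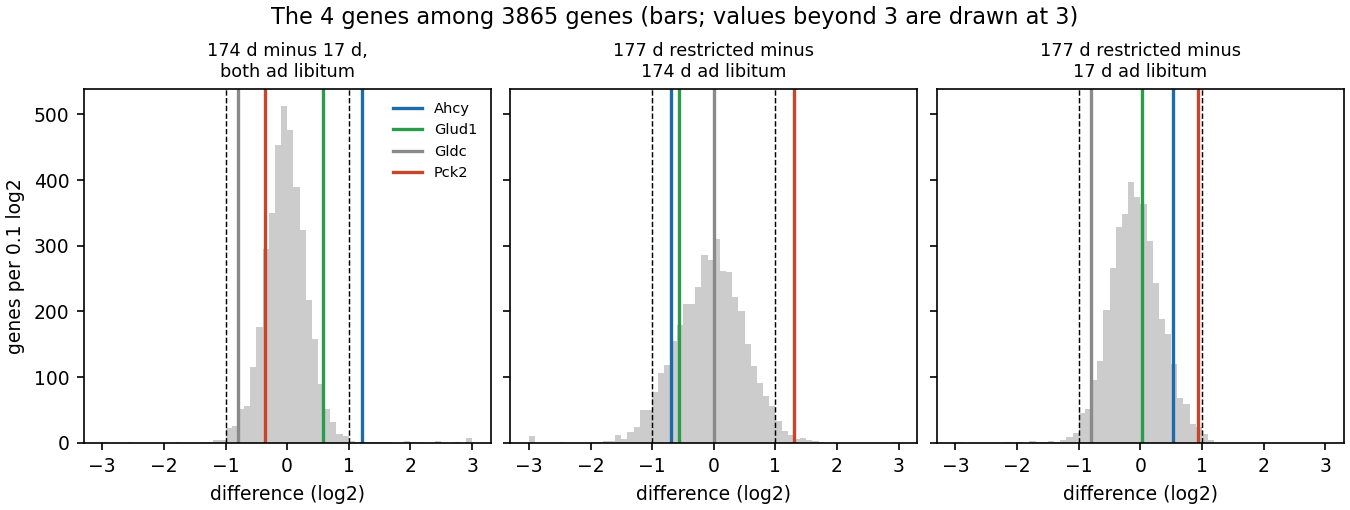
Distribution of the differences (log2, x axis) of 3865 genes (grey bars, genes per 0.1 log2, y axis) with the 4 genes as coloured lines; dashed lines mark 2-fold and each group had 1 mouse. Ahcy lies beyond the dashed line at 1.21 in the age panel and Pck2 at 1.31 in the diet panel.

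The genes that work directly with the 4 were looked at whatever their values, and 12 of 17 had a spot, of which 7 had an entering spot. Around Pck2, the mitochondrial pyruvate carboxylase Pcx, which supplies its oxaloacetate, read 464.9 at 17 days, 102.3 at 174 days and 354.5 under restriction. Pcx was at 0.48 for age and -0.58 for diet, opposite in sign to Pck2 in both, and kept these signs with median centring, loess and the position correction. Around Ahcy, Mat1a, which makes S-adenosylmethionine in hepatocytes, was at 0.13 for age and -0.24 for diet, the latter at 0.07 after the position correction. The Ahcy-like gene Ahcyl1 was at -0.10 for age, but at 0.38 with median centring, and at -0.35 for diet. Ahcyl2, also Ahcy-like, had a spot below the filter, on array B, at -0.02 and 0.58. Its 174-day reading of 5.39 lay under the floor of that array, 7.04. Adk, the kinase that removes the adenosine released by the Ahcy reaction, was at -0.38 and 0.65. Its spot, at 7.45, 7.07 and 7.72 log2 in the 17-day, 174-day and restricted mouse, passed the filter only through the restricted mouse. Both spots of the transsulfuration enzyme Cbs were below the filter, at -0.47 and -0.13 for age. None of these neighbours was 2-fold apart.

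Around Glud1, the mitochondrial aspartate aminotransferase Got2 had an entering spot at 0.24 for age and -0.24 for diet and a dimmer spot at -0.31 and 0.84. The dim spot of the glutamine synthetase Glul was at -0.44 and 0.18. Of the glycine cleavage system, Dld, whose protein also serves other dehydrogenase complexes, was at 0.02 and -0.23, but at -0.05 and 0.10 after the position correction. The carrier Gcsh read 74.2, 4.07 and 56.0 in the same order of mice, below the filter. The serine hydroxymethyltransferase Shmt1, of the cytosol, had an entering spot at -0.21 and 0.01 and a dimmer one at 0.09 and 0.00, and the dim spot of the mitochondrial Shmt2 was at -0.22 and 0.36. No partner of Glud1 or Gldc with an entering spot was 2-fold apart either.

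The wider pathway was described by 9 lists of genes of amino acid breakdown, gluconeogenesis, the citric acid cycle and their regulators, chosen with earlier results of these data known. Of 89 listed genes with a spot, 54 had an entering spot. In the age comparison 1 of these 54, Ahcy, was at least 2-fold higher (0.724% of all genes) and 0 were at least 2-fold lower (0.44%), with a median of -0.10 beside -0.03 for all genes. With median centring Bcat2 (1.13) was also 2-fold higher, and the median was 0.24 beside 0.21. In the diet comparison 4 were at least 2-fold higher, Pck2, Idh3a, Bcat1 and Suox (2.25% of all genes), and 0 lower (4.61%), with a median of 0.08 beside -0.04. That split changed with the scaling. With median centring Bcat1 (0.93) and Suox (0.91) fell short of 2-fold, and the median was -0.13 beside -0.31. Idh2 of the citric acid cycle (-1.24), Bcat2 (-1.17) and Gldc (-1.03) were then 2-fold lower, as were 613 of all genes. After the position correction Idh3a (0.75), Bcat1 (0.22) and Suox (0.28) fell short, and Pck2 stayed 2-fold higher. For the restricted against the 17-day mouse, Bhmt was at least 2-fold lower (1.11% of all genes) and 0 were higher (0.466%). The direction of a gene held under all 3 other scalings (median centring, loess, position) for 38 of 54 genes in the age comparison, 32 in the diet comparison and 37 for the restricted against the 17-day mouse. Direction was taken against 0, without removing the shift of all genes under median centring (0.21 for age and -0.31 for diet). The genes whose sign turned included some well away from 0, such as Got1 for diet (0.53) and Gldc for age (-0.80).

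Among the genes of nitrogen disposal and transamination, none was 2-fold apart. Only 2 of 3 urea cycle genes with a spot entered: Asl, the argininosuccinate lyase, was at 0.29 for age and 0.16 for diet, the latter at -0.13 with median centring. Slc25a13, the aspartate and glutamate carrier, was at -0.12 and -0.22, the former at 0.29 with median centring and 0.17 after the position correction. Of 6 genes of glutamate and proline metabolism, Glud1 was the highest for age and the lowest for diet, except that with median centring the alanine aminotransferase Gpt was beyond it in both (0.71 and -0.86). The cytosolic aspartate aminotransferase Got1 was the lowest for age (-0.40) and the highest for diet (0.53), but at -0.02 and -0.06 after the position correction. The Got1 spot, at 7.56, 7.15 and 7.69 log2 in the 17-day, 174-day and restricted mouse, passed the filter only through the restricted mouse. Tdo2, the first enzyme of tryptophan breakdown and the only aromatic amino acid gene that entered, was at 0.30 for age and -0.32 for diet, the latter at -0.06 after the position correction.

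Glycine, serine and one-carbon genes had a median of -0.29 for age over 5 genes and 0.01 for diet. Besides Gldc they held Phgdh, the first enzyme of serine synthesis (-0.42 for age, 0.40 for diet), and Psat1, the next one (-0.29 and 0.43). After the position correction Phgdh was at -0.14 and 0.09 and Psat1 at -0.10 and 0.13. Among 7 methionine cycle and transsulfuration genes the median was -0.22 for age, and Ahcy stood alone at the upper end, the next being Mat1a. Bhmt, which remethylates homocysteine with betaine, was the lowest for age at -0.46, but at -0.08 with median centring and -0.21 after the position correction, where Adk was lower (-0.39 and -0.30). Bhmt was at -1.04 in the restricted against the 17-day mouse, at -0.88 with median centring and -0.97 with loess, below 2-fold, and at -1.14 after the position correction. Suox, the sulfite oxidase at the end of cysteine breakdown, was at 1.03 for diet but at 0.28 after the position correction.

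Branched-chain amino acid genes had opposite values for the 2 aminotransferases that open the pathway. Bcat2, the mitochondrial form, was at 0.96 for age and -0.97 for diet, a pattern with the highest value in the 174-day mouse like those of Ahcy and Glud1. Bcat1, the cytosolic form, was at -0.09 for age, but at 0.23 after the position correction, and at 1.04 for diet, but at 0.22 after that correction. Dbt, a core subunit of the branched-chain ketoacid dehydrogenase, was the lowest for age at -0.45 and at 0.86 for diet. Over the 10 genes the median was -0.12 for age and 0.24 for diet, but 0.14 and -0.12 with median centring and 0.01 and 0.03 after the position correction.

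Gluconeogenesis genes and their carriers had a median of 0.09 for age and 0.05 for diet over 11 genes, the latter at -0.17 with median centring and -0.04 after the position correction. Pck2 was the only one 2-fold apart in any comparison. Ldha, a lactate dehydrogenase subunit, was the lowest for age at -0.66 and at 0.40 for diet. After the position correction it was at -0.28 and -0.04, and Pck2 was the lowest for age. In the citric acid cycle, Idh3a, the catalytic subunit of the NAD-dependent isocitrate dehydrogenase, was at -0.48 for age and 1.20 for diet. After the position correction it was at 0.75 for diet, below 2-fold. Idh3g, another subunit of that enzyme, was at -0.46 and 0.72, and Dlst, of the oxoglutarate dehydrogenase complex, at 0.31 and -0.30, the latter at 0.07 after the position correction. The median of the 9 cycle genes was 0.02 for age and -0.03 for diet, but 0.30 for age with median centring and 0.23 for diet after the position correction.

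Of 10 regulators with a spot, 5 entered. Atf4 itself was at -0.18 for age and 0.21 for diet. Its sign turned in both comparisons with median centring (0.15 and -0.24, beside 0.21 and -0.31 for all genes). For age the sign of Atf4 also turned after the position correction (0.01). Trib3, a target of ATF4 in the response to amino acid shortage, was at -0.91 for age and 0.64 for diet. After the position correction Trib3 was at -0.55 and 0.20. Eif2ak4, the kinase that senses uncharged tRNA, was at -0.15 and 0.17, but at 0.27 and -0.49 with median centring. Foxo3 was at 0.42 for age and 0.09 for diet, but at 0.12 and -0.07 after the position correction. With median centring its diet value was -0.20. Foxo1, which drives gluconeogenic genes in fasting, was at -0.40 and 0.17, and at -0.81 for age after the position correction. No regulator was 2-fold apart.

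**Figure D4:**
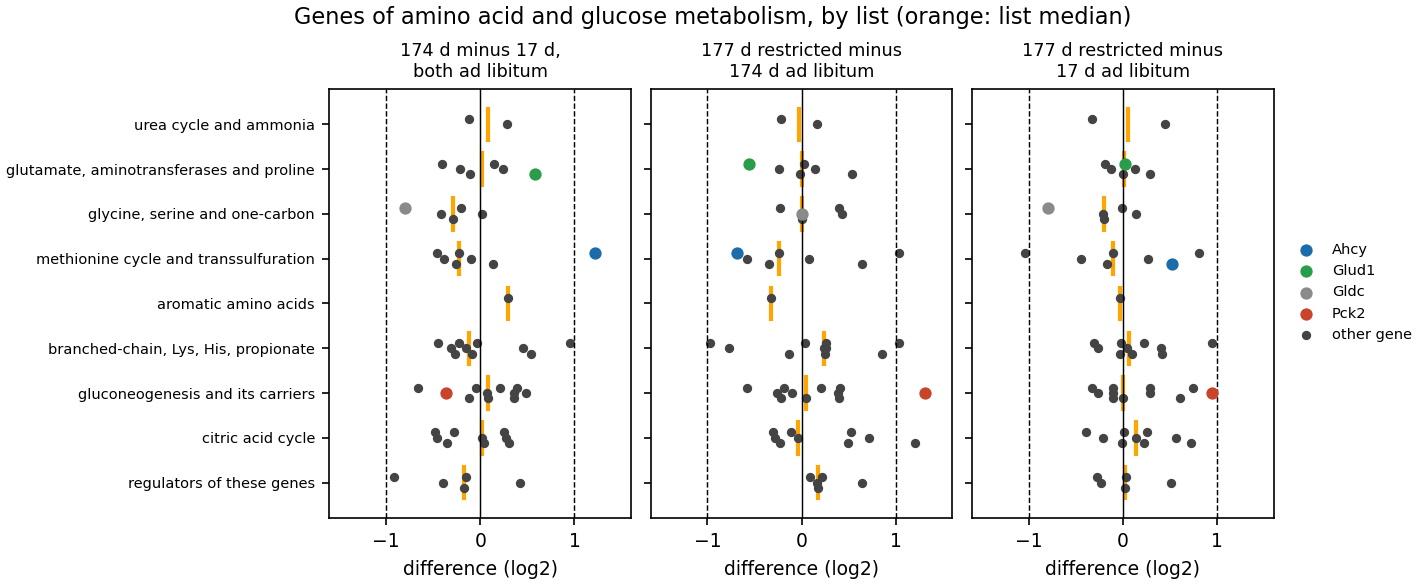
Differences (log2, x axis) of each list gene with an entering spot, by list (rows), in the 3 comparisons; each point is 1 gene, coloured points are the 4 genes, orange bars are list medians, dashed lines mark 2-fold and each group had 1 mouse. Ahcy lies to the right of the other methionine cycle genes in the age panel, and Pck2 to the right of the other gluconeogenesis genes in the diet panel.

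Genes with the most similar pattern were found by the Euclidean distance between values centred on their mean over the 3 mice. For Pck2 they were Alb (0.09 log2), Sfr1 and Zbtb8a, and 31 genes lay within 0.25 log2. Alb, the albumin gene, was at 1.18 for diet, but at 0.55 after the position correction and at -0.15 with median centring, unlike Pck2. For Ahcy they were Ppp4c (0.17), Wdr70 and Abcd3, and only 2 genes lay within 0.25. For Glud1, Rpl27a, Atxn1l and Kctd1 came first among 277 genes within that distance. For Gldc, whose direction is not settled, they were Gm20052, BC004004 and Thumpd1, with 39 genes within it. A likeness over 3 mice rests on few values.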

How the data were processed

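Probes were named through GEO's platform annotation: of 16896 spots, 9663 had 1 symbol, 436 several and 6797 none. Of the former, 9641 matched RefSeq gene names (GRCm38.p6) by gene number, and 0 symbols changed. The deposited intensity values were taken as linear from their range. What the authors did to make them (label, scanner, background, scaling) is not given in the sources used here. Unremoved background would shrink the differences of dim spots. Columns of values without a mouse numbered 0.

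Within each array, intensities below the 5th percentile were raised to it. Their log2 values were quantile-normalized, separately for arrays A and B. Spots with a mean above the 50th percentile entered, and the median over a gene's entering spots gave its difference (3865 genes). A log2 difference of at least 1 was counted as 2-fold. With 1 mouse per group there was no test, and the number of arrays limits the precision. Members, lists and alternatives were chosen with earlier results of these data known. Named list genes were those 2-fold apart in any comparison, the highest and lowest of each list for age and diet, fixed partners of the members, and the 3 genes nearest each member in pattern. Phgdh, Gpt, Idh2, Idh3g, Foxo1, Eif2ak4 and Atf4 were added after their values were seen, as were the CCAAT and GC box motifs. The alternatives included median centring, loess (span 0.3) and a position correction. For the latter, median deviations of 16 runs of 528 spots, and of the places within a run, were subtracted. Runs followed the order of the deposited values, and coordinates on the array were not used. The run length was chosen from these data, where differences between mice correlated most between spots 1 run apart. Other alternatives were no filter, the 25th percentile as floor, the brightest spot and leaving out spots of exactly 10. Each array kind alone and a 1.5-fold threshold were also used. Scaling the 17-day and restricted arrays without the 174-day arrays was chosen after seeing the data. The procedure was tested on simulated data, with known differences planted in the restricted mouse, random noise and an even dimming of the 174-day mouse. The simulation held no effect of spot position and no bias that varied with brightness, so it could not test how those act here. Python 3.11.15, numpy 2.4.6, pandas 2.3.3 and statsmodels 0.14.6 were used.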

Additional observations from a re-analysis of the deposited data

How the results depend on the processing

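Of 103 values of the 4 genes under the alternatives, 85 lay within the median SD between spots of a gene of the reported value and 18 did not. All values of Pck2, and those of Ahcy except 1.46 for age with median centring, were among the 85. Many of the 85 could not have moved. Ahcy and Pck2 each had 1 spot, on array A, above the filter and the higher floor. For them only the other scalings and the position correction could change a value. Gldc was at 0.59, -1.03 and -0.44 (age, diet, restricted against 17-day) with median centring and -0.12, 0.63 and 0.47 with loess. For age and for the restricted against the 17-day mouse it was at -0.39 and -0.32 after the position correction and at -0.55 and -0.45 with no filter, and at -0.40 for the latter with the 17-day and restricted arrays scaled alone. Glud1 was at 1.03 for age and 0.36 for the restricted against the 17-day mouse on array A, and at 0.14 and -0.31 on array B and with the brightest spot. The floor at the 25th percentile and leaving out spots of exactly 10 moved none of the 4. They could not, since each entering spot lay above that floor and none read 10. Array B alone gave no value for Ahcy, Gldc and Pck2.

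Counts of genes 2-fold higher and lower depended more on the processing. With median centring they were 61 higher for age and 50 higher and 613 lower for diet. With loess, 7 genes were higher in the restricted than in the 17-day mouse. After the position correction 8 genes were lower for age, 36 higher and 78 lower for diet, and 4 higher for the restricted against the 17-day mouse. With no filter they were 140 and 90 for age and 219 and 313 for diet. Array A alone gave 49 and 105 for diet. Array B alone gave 9 and 5 for age, 50 and 94 for diet, and 3 and 8 for the restricted against the 17-day mouse, from fewer genes. At 1.5-fold the counts were 143 and 190, 445 and 658, and 212 and 383, in the order of the comparisons above. The 17-day and restricted arrays scaled alone gave 7 higher. The reported counts were 28 and 17, 87 and 178, and 18 and 43. The single arrays hold fewer genes, no filter admits more, and a lower threshold passes more, while the cause of the shifts with scaling was not tested. No paired analysis was possible because each group had 1 mouse.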
